A study of Bos taurus with 8 samples.

Results

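The first megabase of each bovine autosome, the stretch next to the centromere, was examined for CpG methylation in dermal fibroblasts. It was taken as every 3Kb window of chromosomes 1 to 29 that starts below position 1000000 of UMD v3.1, which gave 9661 of the 902984 windows of the genome, 333 or 334 per chromosome. Bovine autosomes are acrocentric, so their centromeres lie at one end, and the bovine maps by convention count positions from that end. The files mark no centromere, so the position rests on that convention. The windows were laid end to end over the genome, and the opening bases of chromosomes 2 to 29, at most 2980 of them, lie in the last window of the chromosome before and are not included. Of the 9661 windows, 9584 were 3000 bases long and the longest had 3200 bases.

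Cytosine methylation at CpG sites is the main methylation mark of mammalian DNA, and in somatic cells most CpG outside active promoters carries it. The satellite repeats that make up cattle centromeres are rich in CpG and usually heavily methylated, whereas CpG-rich promoters are usually free of the mark. Genes that are subject to genomic imprinting carry it on the allele from 1 parent.

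MIRA-Seq measures this mark by enrichment: sonicated DNA is incubated with the MBD2b/MBD3L1 protein complex, which binds methylated CpG, and the bound fragments are sequenced. The 8 libraries came from dermal fibroblasts, un-treated and at passage 5, of 4 Holstein (dairy) and 4 Angus (beef) heifers, 1 library per animal, and the comparison of the breeds was the purpose of the design. Levels are given as CPM, the counts per 1000000 reads in windows, and each culture is called by its breed and animal number. A pull-down read count rises with the number of methylated CpG sites in a window, with copy number and with repeats that attract reads from elsewhere, and no input library was used to separate these; the identity of the cells could not be checked, because DNA data hold no expression markers.

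The libraries held 18691111 to 35525554 reads in windows, of which 355983 to 688545, at most 2.03%, fell in the first megabase. The median member window held 3 to 12 reads, 1.65 to 14.7% of the windows had no read, and 3 reads corresponded to 0.0844 to 0.161 CPM, a floor that covers counting error only. Holstein 1 and Angus 3 stood apart. Windows with a mean of 20 CPM or more over the 8 cultures, called high windows here, took 69.0% and 71.3% of their first-megabase reads, against 56.5 to 63.6% in the other cultures. The same cultures stood apart in the rest of the autosomes, where high windows took 57.2% and 58.9% of their reads, against 36.0 to 44.7%. No pair of libraries of a breed agreed within sampling noise.

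Taken over all autosomes together, the first megabase drew more reads per window than the rest. The mean was 1.86, 2.03, 2.10 and 2.01 CPM per window in Holstein 1 to 4 and 1.78, 2.05, 1.76 and 2.10 CPM per window in Angus 1 to 4, while the mean of the other autosomal windows lay between 0.855 and 1.02 CPM. Every culture thus lay higher in the first megabase, and the breeds overlapped. Over the cultures the means were 1.96 ± 0.138 and 0.967 ± 0.0553 CPM (SD, n = 8), a ratio of 2.03 that ranged from 1.85 to 2.13, and the difference of 0.994 CPM was higher in 8 of 8 cultures (exact sign-flip permutation test, two-sided, p = 0.00781, the smallest this test can give; adjusted p = 0.0109 over 7 comparisons). Without Holstein 1 and Angus 3 the difference was 1.02 CPM. The test takes the cultures as replicates over 1 fixed set of windows. No other megabase was compared with the rest in this way, so the p-value does not show whether this region is unusual. Not all chromosomes shared the higher mean. Against the rest of the chromosome, the mean was lower on chromosomes 1, 5, 6, 7, 12, 21, 22, 23, 27, 28 and 29. It was higher on the others. The ratio ran from 0.263 on chromosome 23 to 24.8 on chromosome 14.

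The typical window did not share this difference. The median window held 0.283 ± 0.0934 CPM in the first megabase and 0.285 ± 0.0841 CPM in the rest (SD, n = 8). The medians were equal in 6 cultures, lower in Holstein 1 and higher in Angus 2 (exact sign-flip permutation test, p = 1). A median is a whole number of reads in most libraries, so a difference of under 1 read, 0.0281 to 0.0535 CPM, was not detectable at this depth. Windows with at least 1 CPM made up 18.8% ± 3.09 of the first megabase and 12.8% ± 3.08 of the rest, 5.96 percentage points more, in 8 of 8 cultures (exact sign-flip permutation test, adjusted p = 0.0109). The excess therefore lay in a minority of windows: without high windows the difference in means was 0.208 CPM, without chromosomes 14 and 25 it was 0.476 CPM, and without the first 10 windows of each chromosome it was 0.647 CPM, each still higher in 8 of 8 cultures. With a limit of 2 Mb the difference was 0.482 CPM, and with a limit of 500 kb it was 1.68 CPM.

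The opposite end of the chromosomes differed. The last megabase, 9655 windows, had a median of 1.57 ± 0.321 CPM, 1.28 CPM above the first megabase in 8 of 8 cultures (exact sign-flip permutation test, adjusted p = 0.0109). High windows were nevertheless fewer there, 39 (0.404%) against 148 (1.53%) in the first megabase. At the limit itself the members just inside had a median of 0.380 CPM over the 29 chromosomes and the windows just outside 0.356 CPM.

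Reads were densest next to the chromosome start. Windows starting in the first 100 kb had a mean of 6.08 ± 0.678 CPM (n = 8) and held 74 of the 148 high windows. The next 100 kb had 1.97 ± 0.115 CPM and the third 2.44 ± 0.147 CPM. The level then lay between 0.560 CPM, at 700 to 800 kb where no window was high, and 1.94 CPM. The medians of the same 100 kb stretches spanned 0.236 to 0.391 CPM and were highest in the first 100 kb. There 34.0% of the windows had a mean of at least 1 CPM, against 12.2% in the rest of the autosomes. The first and second 500 kb had medians of 0.275 and 0.283 CPM, a difference of -0.00803 CPM that was lower in 3 cultures, higher in 1 and 0 in 4 (exact sign-flip permutation test, adjusted p = 0.438).

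**Figure D1:**
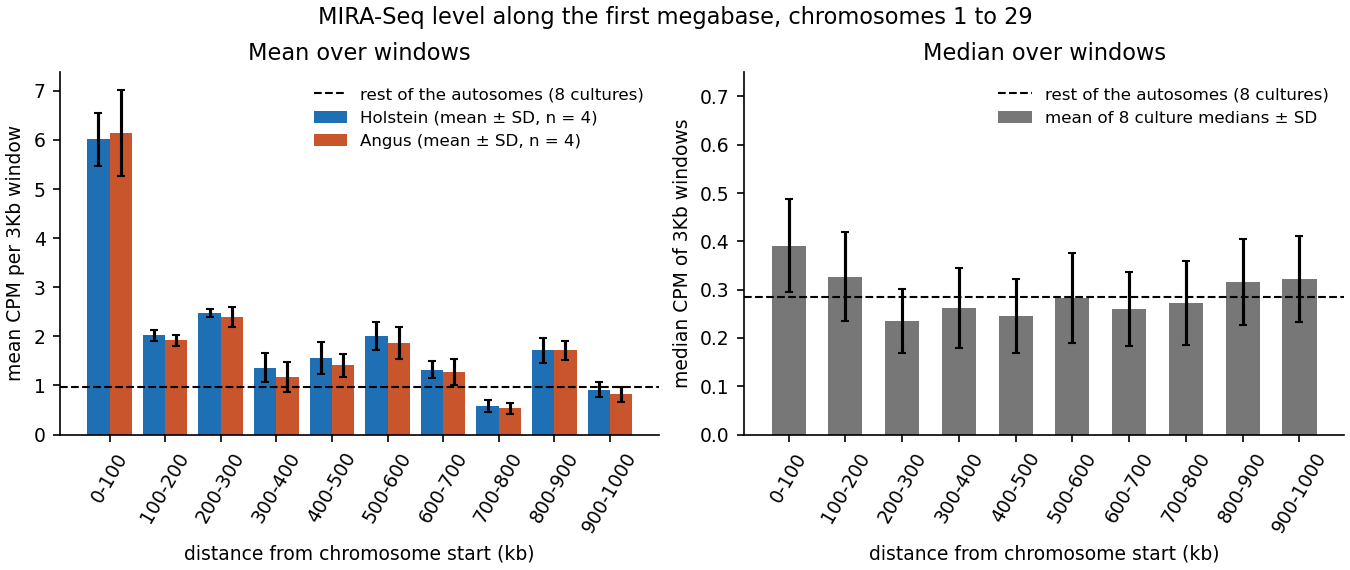
Mean (left, by breed, bars with SD, n = 4 each) and median (right, 8 cultures, bars with SD) CPM of 3Kb windows by distance from the chromosome start in steps of 100 kb, with the rest of the autosomes as a dashed line. The mean of the first 100 kb, 6.08 CPM, stands above every later stretch in both breeds. The medians run from 0.236 to 0.391 CPM, highest in the first 100 kb, around the 0.285 CPM of the rest.

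This start was not alike on all chromosomes. The first window had a mean of 35.0 ± 6.31 CPM over the 29 chromosomes (SD over 8 cultures), but its median over chromosomes was 1.19 CPM. It was high on 12 chromosomes and below 1 CPM on 14. The highest first window was that of chromosome 16, at 224 ± 63.7 CPM, followed by chromosomes 5 (159 ± 43.6), 13 (136 ± 53.4) and 9 (132 ± 44.8). The lowest was that of chromosome 8, at 0.00352 CPM, under the level of 3 reads in every library. The mean over chromosomes fell to 19.7 CPM in the third window, 16.8 in the fourth and 8.94 in the fifth. Of the 290 windows among the first 10 of each chromosome, 47 (16.2%) were high, on 13 chromosomes, against 1.08% of the other members and 15 of the 290 windows among the last 10 of each chromosome. Those first 10 windows took 17.1 to 26.1% of the first-megabase reads of a library.

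High windows were 1.53% of the first megabase and 0.273% of the rest of the autosomes (2262 windows), 5.60 times the share, and held 56.5 to 71.3% of the first-megabase reads. They lay on 22 chromosomes, but unevenly. Chromosome 14 had 54, chromosome 19 had 26, chromosome 13 had 10, chromosome 9 had 9 and chromosome 4 had 8. Only 21 of the 148 (14.2%) carried a gene name, against 38.6% of all member windows; in the rest of the autosomes 19.8% of high windows did, against 40.0% of all windows. Within a high window the reads were stacked, and the highest base coverage was 8.76 times the mean coverage at the median window, from 3.35 to 28.3 times. High windows in the rest of the autosomes were stacked too, at 9.80 times, from 3.08 to 55.4 times.

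The 5 windows with the most reads were in 1 case each on chromosomes 3, 8 and 13 and in 2 cases on chromosome 17. The highest, chr3:692610-695609, lay inside DCAF6, which encodes a substrate receptor of a cullin ubiquitin ligase. It held 446, 426, 334 and 463 CPM in Holstein 1 to 4 and 467, 548, 278 and 648 CPM in Angus 1 to 4. The breeds overlapped, and the lowest culture was still at 278 CPM. The first window of DCAF6 itself, chr3:767610-770609, held 0.194 ± 0.148 CPM, so the reads of this gene were stacked in 1 window of its body.

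On chromosome 17 the windows chr17:269494-272493 and chr17:290494-293493, with no gene name, held 446 ± 158 and 385 ± 131 CPM (n = 8). Both were highest in Angus 3 and second highest in Holstein 1. In the second of them the highest base had 19.9 times the mean coverage. The window next to it, chr17:293494-296493, held 140, 55.6, 138 and 106 CPM in the Holstein and 33.3, 38.0, 81.2 and 25.4 CPM in the Angus cultures, overlapping between breeds, and its log2 fold change, 1.04 ± 0.49 (SE), did not pass the edgeR likelihood-ratio test (FDR = 0.932). Chromosome 17 had 1 more high window, chr17:584494-587493 in CPE, the carboxypeptidase that trims prohormones, at 54.3 ± 12.5 CPM. The median of the first megabase of chromosome 17 was 0.190 ± 0.0612 CPM. The fourth highest window, chr8:121787-124886, had no gene name and held 343 ± 97.2 CPM.

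The fifth, chr13:882497-885496, lay in PLCB1, the gene of phospholipase C beta 1, which cleaves phosphatidylinositol bisphosphate in receptor signaling. It held 266, 146, 547 and 196 CPM in Holstein 1 to 4 and 169, 262, 360 and 248 CPM in Angus 1 to 4. It was part of a run of 8 consecutive high windows, chr13:864497-888496, with 59.8 to 274 CPM, and the 3 windows on either side held 0.0770 to 0.232 CPM. The edges of the run were therefore sharp at the scale of a window. The first window of PLCB1 held 0.454 ± 0.154 CPM. The run made up 8 of the 10 high windows of chromosome 13, and the other 2 were the first windows of that chromosome.

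The plot of single windows shows the different layouts. On chromosome 19, 24 of the first 25 windows were high, at 21.7 to 155 CPM, and 2 more high windows stood together at chr19:207875-213874; the median of its first megabase was 0.163 CPM all the same. On chromosome 16 the level fell over the first 7 windows, from 224 to 16.4 CPM, and lay between 2.23 and 7.74 CPM in windows 8 to 16. On chromosomes 15 and 18 the 5 high windows lay among the first 10. Chromosomes 6, 12, 20, 21 and 23 had no high window in the first megabase, nor had 1 and 28.

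**Figure D2:**
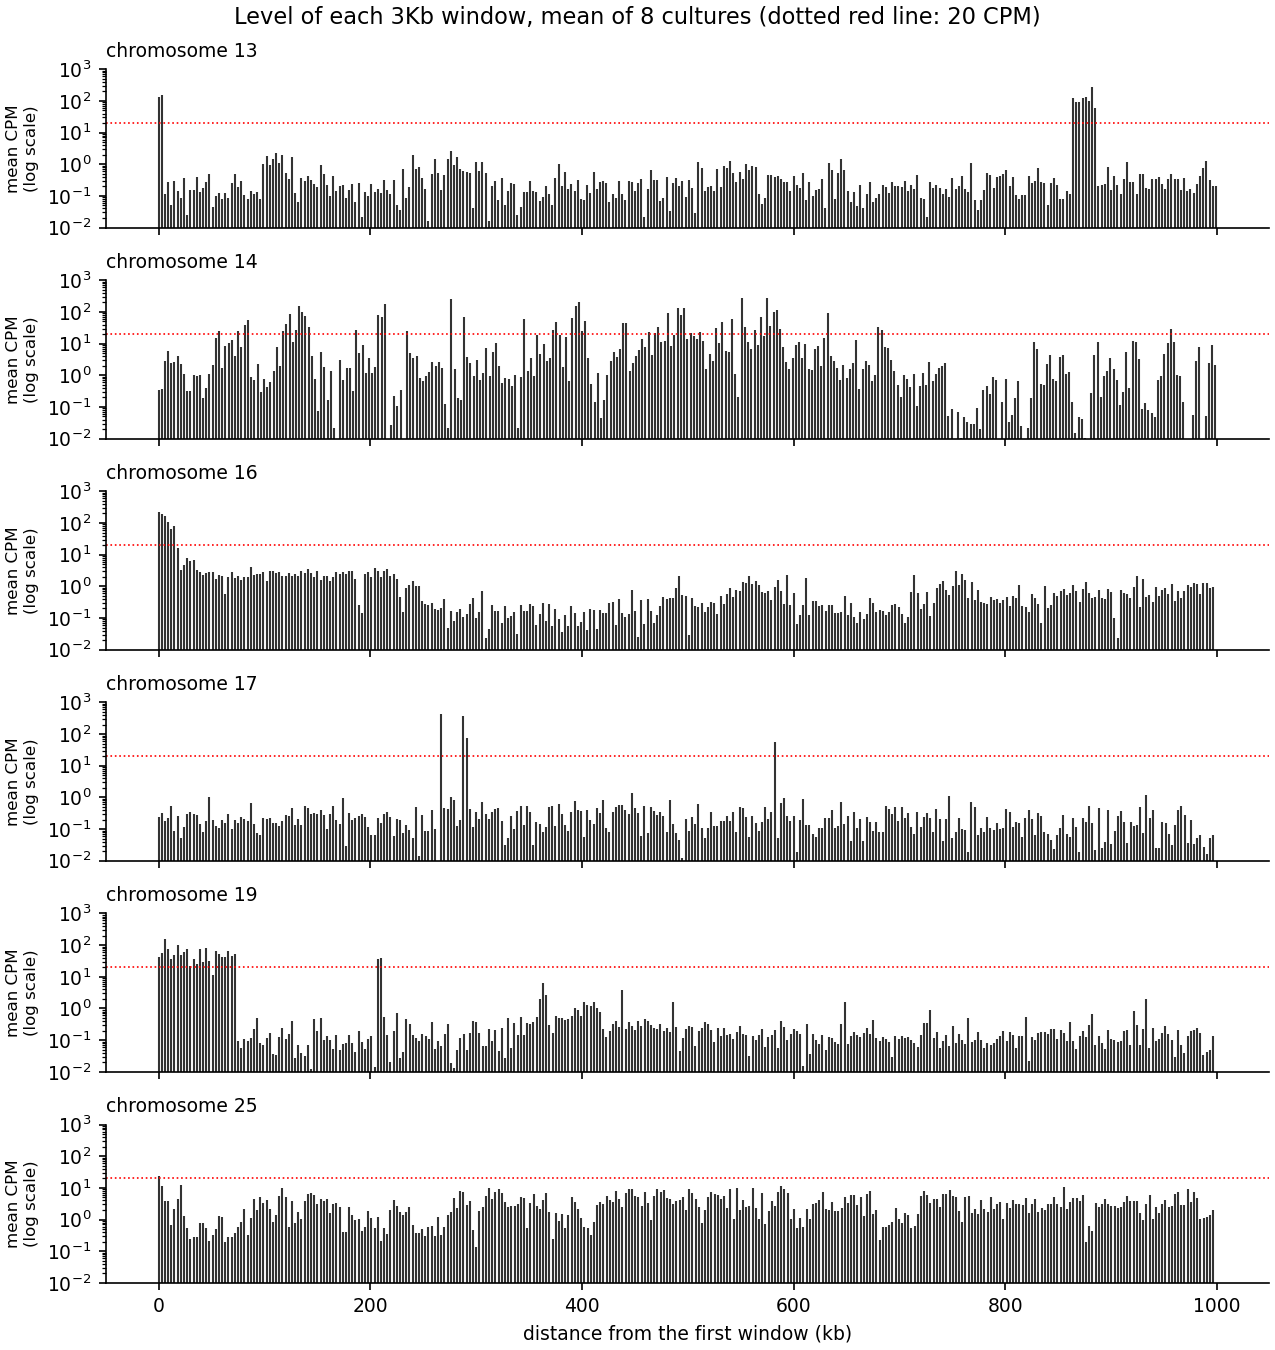
Mean CPM of the 8 cultures (log scale; windows below 0.01 CPM are not drawn) of each 3Kb window against its distance in kb from the first window, on 6 chromosomes, with 20 CPM as a dotted line. High windows sit at the start of chromosomes 13, 16 and 19 and in the run of 8 PLCB1 windows on chromosome 13. Chromosome 17 has 4, of which 2 are neighbors. On chromosome 14 they lie from 57.0 to 683 kb with 1 more at 956 kb, while chromosome 25 has 1 high window, its first.

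Which cultures were highest in high windows changed with the chromosome. Angus 3 was the highest culture in 6 of the 6 high windows of chromosome 16 and in 6 of the 10 of chromosome 13, but the lowest in 22 of the 26 of chromosome 19 and in 24 of the 54 of chromosome 14. Over all 148 it was highest in 35 and lowest in 65, and in the 2262 high windows of the rest of the autosomes it was highest in 459 and lowest in 1295. Angus 4 was highest in 42 of the 148 and 697 of the 2262, and Angus 1 in 1 and 18. Holstein 1 was highest in 20 of the 148, against 766 of the 2262, where it was the culture most often highest.

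The first megabases of the chromosomes spanned a wide range of medians. Chromosome 25 had the highest, 2.66 ± 0.514 CPM (SD, n = 8; 1.88 to 3.43 over cultures), and chromosome 14 the next, 2.00 ± 0.683 CPM (1.31 to 3.33). Chromosome 25 was above chromosome 14 in 7 of 8 cultures. Chromosome 11 followed at 0.689 ± 0.174 CPM, below chromosome 14 in 8 of 8 cultures and above chromosome 20 (0.677 CPM) in 4 of 8. The lowest were chromosomes 6 (0.129 ± 0.0488), 12 (0.129 ± 0.0483) and 15 (0.139 ± 0.0553), which did not differ from each other beyond their spread and lay near the level of 3 reads. Below chromosome 14, neighbors in this order mostly overlapped over cultures, with SDs mostly larger than the steps between them. Within cultures, chromosome 20 lay above chromosome 24 and chromosome 16 above chromosome 28 in 8 of 8. Chromosome 1 lay above chromosome 10 in 7 of 8, and the other neighbors kept the order in 0 to 6 cultures.

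Against the rest of their own chromosome, 12 first megabases had a higher median and 15 a lower one at an adjusted p below 0.05 over 29 exact sign-flip permutation tests, where the smallest adjusted p obtained was 0.00985. Other megabases were not put to this test, so these counts do not show whether the first megabase is unusual. Chromosomes 3 and 7 did not pass (adjusted p = 0.0625), although no culture was higher there. Chromosome 25 had 2.66 CPM against 0.552 CPM in its rest, and chromosome 14 had 2.00 against 0.289 CPM. Among the lower ones, chromosome 19 had 0.163 CPM against 0.538 CPM and chromosome 18 had 0.182 against 0.471 CPM. The near equality of the medians over all autosomes was thus made of chromosomes on either side. The mean and the median pointed in opposite directions on several chromosomes: chromosome 19 had a mean of 4.61 CPM against 0.954 in its rest, and chromosome 1 had a mean of 0.711 against 1.94 with a median of 0.524 against 0.232.

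**Figure D3:**
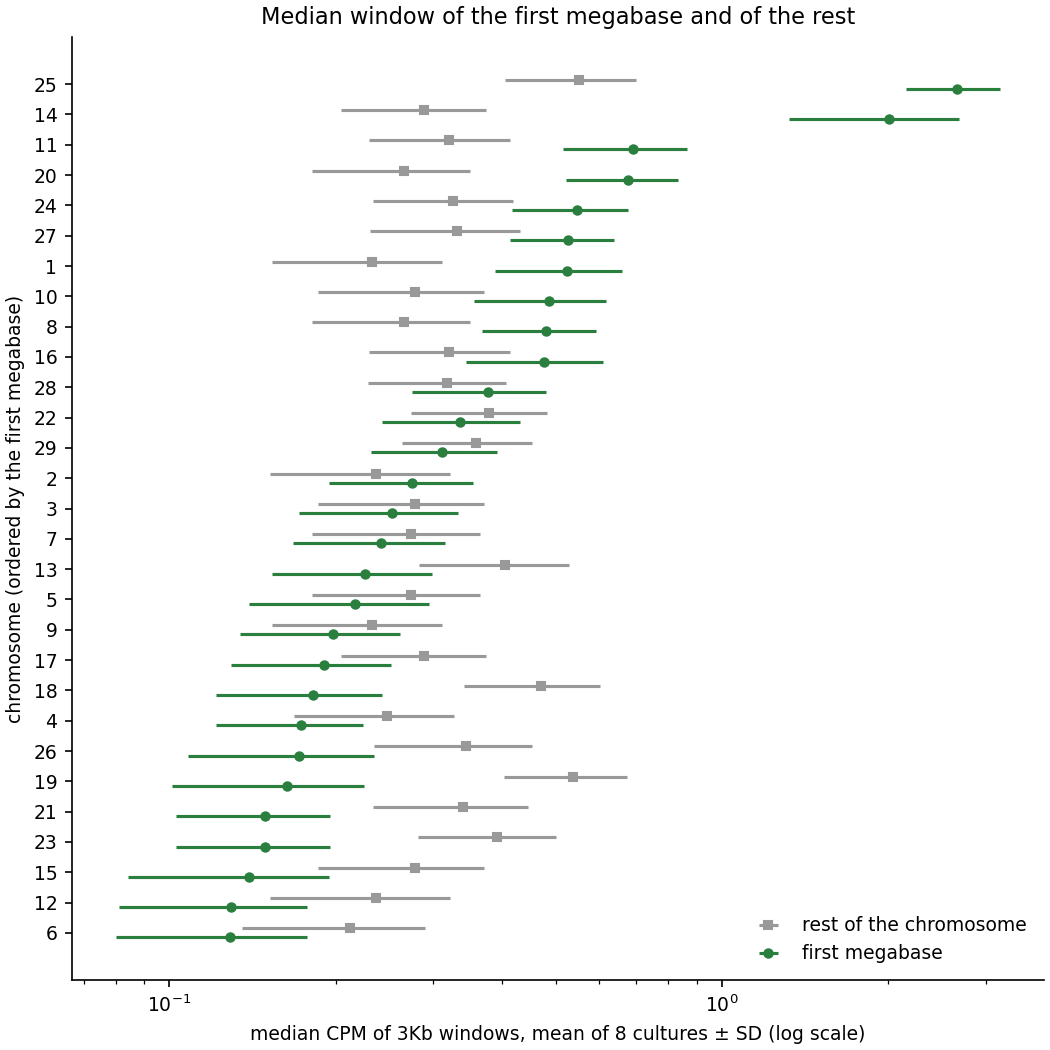
Median CPM of the 3Kb windows of the first megabase (circles) and of the rest of the same chromosome (squares), mean of 8 cultures ± SD, on a log scale, ordered by the first megabase. Chromosomes 25 and 14 lie at 2.66 and 2.00 CPM, clear of the other chromosomes, and the circles are left of the squares on the lower part of the plot.

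Chromosomes 25 and 14 reached their levels in different ways. Chromosome 25 was dense in genes, with 54 gene names on 63.4% of its member windows, and 79.6% of its windows had a mean of at least 1 CPM, but only 1 was high. Chromosome 14 had 10 gene names on 13.8% of its windows, a mean of 14.5 ± 2.43 CPM, 54 high windows and on average 25.3% of the first-megabase reads of a library. Both remained above the autosomal median for several megabases. The medians of the second to sixth megabase of chromosome 14 were 0.826, 1.92, 2.08, 1.94 and 0.466 CPM, and those of chromosome 25 were 1.91, 0.927, 1.16, 0.553 and 0.339 CPM. High windows fell on chromosome 14 from 54 in the first megabase to 7 in the second and 3 in the third.

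Chromosomes 4, 6 and 23 held few gene names and had low medians. A link between the number of gene names and the level of a chromosome was not tested. Chromosome 4 had a gene name on 2.70% of its member windows, a median of 0.173 CPM and 8 high windows. Its mean was 1.68 CPM, against 1.02 CPM in its rest. Chromosome 6 had a name on 2.10%, a median of 0.129 CPM and no high window. On chromosome 23 the single name was that of KHDRBS2, an RNA-binding protein gene that covered 227 of the 333 windows. None of these was high, and 0% of the first-megabase windows of chromosome 23 had a mean of at least 1 CPM.

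In the first megabase 413 genes had at least 1 window, 156 with a symbol and 257 with a locus (LOC) name only. Windows with a gene name had a median of 0.348 ± 0.103 CPM and those without one 0.257 ± 0.0741 CPM (SD, n = 8), higher in 8 of 8 cultures (exact sign-flip permutation test, adjusted p = 0.0109). The difference of 0.0912 CPM shrank to 0.0283 CPM, higher in 6 cultures and equal in the others, when only windows below 500 kb were taken. The window in which a gene starts, taken by strand and the closest to its promoter that these windows resolve, had a median of 0.300 ± 0.0774 CPM against 0.364 ± 0.0921 CPM in the other gene windows, lower in 8 of 8 cultures (exact sign-flip permutation test, adjusted p = 0.0109). That difference was 1 read in Holstein 1, Holstein 3 and Angus 2, and under 1 read in Angus 3 (-0.0168 CPM). With a limit of 2 Mb the difference over cultures turned to 0.00786 CPM and did not pass the test (adjusted p = 0.75).

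Of 149 genes with a symbol whose first window lay in the first megabase, 99 (66.4%) had a mean below 1 CPM there, against 81.4% of all member windows. Chromosome 25 held 49 of the 149 genes and 38 of the 50 with 1 CPM or more. On that chromosome 79.6% of all member windows also had a mean of at least 1 CPM. This contrast therefore rested on chromosome 25 and was not shown for the other chromosomes. The median of the 149 genes was 0.573 CPM, that of the 257 LOC genes 0.212 CPM and that of all member windows 0.284 CPM. Of the 131 genes with a symbol that had other member windows, 97 had a higher mean in those. On chromosome 25 this held for 30 of 37, with a median of 1.80 CPM in the first window and 4.38 CPM in the others. On the other chromosomes the medians were 0.372 and 0.587 CPM.

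**Figure D4:**
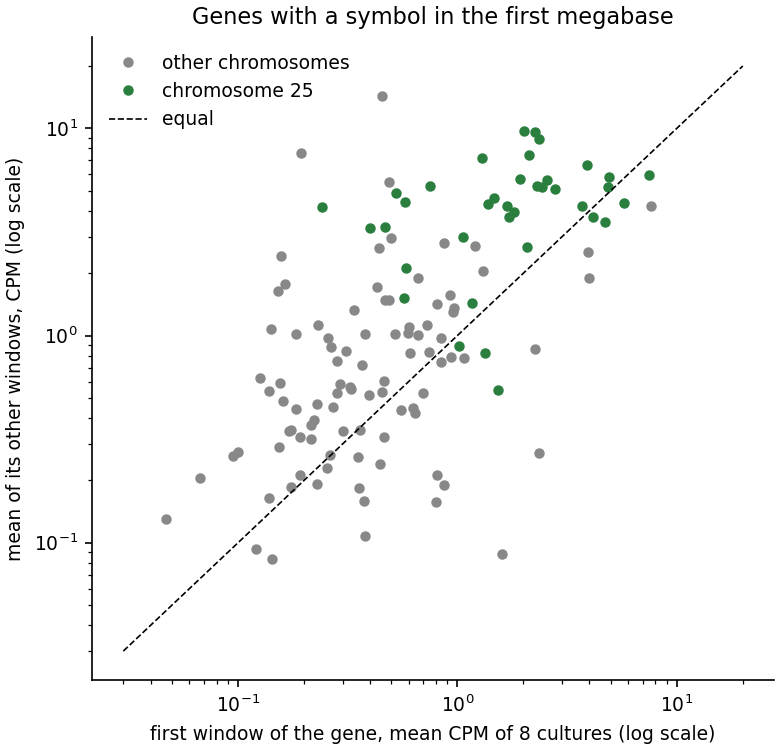
Mean CPM of the 8 cultures in the first window of each gene with a symbol (horizontal, log scale) against the mean of its other windows in the first megabase (vertical, log scale), with equality as a dashed line. Of the 131 genes 97 lie above the line, and chromosome 25 (green) takes the upper right.

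Of the 5 genes with a symbol and the highest first window, 4 lay on chromosome 25 and 1 on another chromosome. The 4 were SSTR5, SOLH, TEKT4 and RPUSD1. SSTR5, a somatostatin receptor that restrains hormone release, had its first window at chr25:856801-859800, with 10.3 ± 1.99 CPM (7.89 to 13.9, n = 8). SOLH, a calpain-like protease, had 7.47 ± 2.14 CPM. TEKT4, a tektin of cilia and flagella, had 5.78 ± 0.782 CPM, and RPUSD1, a pseudouridine synthase family member, 5.10 ± 0.574 CPM. SSTR5 and RPUSD1 had no other window under their name; a window carries at most 1 name.

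At the other extreme the first windows of LGSN (0.0470 CPM), a lens protein gene, SNRPN, CNOT6, PHF3 and OR5M9 (0.121 CPM), in rising order, lay near or under the level of 3 reads, so their order was not resolved. CNOT6 encodes a deadenylase of the CCR4-NOT complex, PHF3 a PHD finger protein of transcription and OR5M9 an olfactory receptor. Families sharing a symbol stem gave a similar spread. The 5 olfactory receptor genes (OR, chromosomes 15, 16 and 26) had 0.107 to 0.272 CPM over their windows, the 4 transmembrane protein genes (TMEM) 0.268 to 3.20 CPM and the 3 genes of the RAB stem, small GTPases and a partner, 0.722 to 4.69 CPM. The 3 FAM genes had 1.31 to 2.87 CPM and the 4 open reading frame and complement-related genes with the stem C 0.520 to 4.12 CPM.

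A further 2 groups of genes, chosen after their values were seen, lie in these megabases. The start of chromosome 21 holds genes of the imprinted domain known from the Prader-Willi region. Its first windows held 0.0669 ± 0.0636 CPM in SNRPN, a splicing factor gene, and 1.60 ± 0.497 CPM in the adjoining SNURF, chr21:23263-26262, the other reading frame of the same imprinted locus. NDN and MAGEL2, both of the MAGE family, had 0.867 ± 0.274 and 1.30 ± 0.367 CPM, and MKRN3, a ring finger gene, 1.68 ± 0.499 CPM. SNURF, NDN, MAGEL2 and MKRN3 thus lay above the chromosome's first-megabase median of 0.149 CPM, and SNRPN did not. The alpha-globin cluster lies on chromosome 25, where HBZ, the embryonic chain, had 1.02 ± 0.295 CPM, HBM 1.16 ± 0.222, HBA 0.211 ± 0.173, HBA1 0.539 ± 0.223 and HBQ1 0.340 ± 0.134 CPM, all 5 below the chromosome's median of 2.66 CPM.

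Some genes had far more reads beyond the first window, and others far fewer; the following were also picked by their values. On chromosome 25 WDR24, a subunit of the GATOR2 complex of amino acid sensing, had 2.26 CPM in the first window and 9.59 CPM in the other, and TMEM8A, a membrane protein gene, 0.241 and 4.18 CPM in its others. In the opposite sense MYOG, the muscle regulator myogenin, on chromosome 16, had 2.36 CPM in its first window, chr16:596981-599980, and 0.270 CPM in the other, and ADORA1, an adenosine receptor gene, 2.26 and 0.861 CPM.

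No difference between the breeds in the level of the whole region passed a test. The mean was 2.00 ± 0.0984 CPM in Holstein and 1.92 ± 0.177 CPM in Angus (SD, n = 4 each), a difference of 0.0746 CPM (exact permutation test, two-sided, p = 0.486, adjusted p = 0.771, smallest possible p = 0.0286). The medians were 0.152, 0.390, 0.303 and 0.338 CPM in Holstein 1 to 4 and 0.384, 0.313, 0.168 and 0.214 CPM in Angus 1 to 4, fully overlapping (means 0.295 ± 0.102 and 0.270 ± 0.0973 CPM, exact permutation test, p = 0.771). The sign of both differences turned with TMM library sizes, to -0.120 and -0.00784 CPM. Without Holstein 1 and Angus 3 the difference of the means was 0.0661 CPM. The 7 within-culture differences described above, between the region and other windows and within the region, also overlapped between the breeds (exact permutation tests, p = 0.2 to 0.971).

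Differential methylation was tested in all windows of the genome with at least 1 CPM in at least 4 cultures by the edgeR likelihood-ratio test, and a DMR had FDR < 0.1 and FC ≥ 2. Of the member windows 1877 (19.4%) could be tested, and the other 7784 were not tested. Of these 1877, 2 were DMRs, against 0.231% of all 115360 windows tested, and so no larger a share than the background. Over the genome 267 windows were called here. The paper lists fewer differing regions, and neither of the member windows called here is among them. Why the lists differ was not tested. The 1 DMR higher in Holstein compares with 0.039% of all and the 1 higher in Angus with 0.192%. Without the FC minimum 3 members passed (0.368% of all), the quasi-likelihood test called 1 (0.122% of all), DESeq2 called 0 (0.122% of all, with 65 of the 1877 members and 3795 of all 115360 windows at an unadjusted p below 0.05), and without the CPM filter 4 were called (0.102% of all). At an unadjusted p below 0.05 there were 94 members (5.01%), against 4.94% of all. The breeds did not overlap in 19 members (1.01%), against 1.31% of all; 16 were higher in Holstein (1.11% of all) and 3 higher in Angus (0.208% of all). The log2 fold changes (Holstein over Angus) of the tested members had a median of 0.003, and most lay between -0.34 (the 5% point) and 0.36 (the 95% point). Scaling by total counts in place of TMM moved the median over all tested windows by 0.14, from -0.002 to 0.14.

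The DMR higher in Angus was chr16:29981-32980, the tenth window of chromosome 16, with no gene name. It held 5.11, 3.72, 5.26 and 3.88 CPM in the Holstein cultures and 9.60, 5.63, 17.8 and 10.9 CPM in the Angus cultures, in order of number, from 86 to 531 reads. All Angus cultures were above all Holstein cultures, with Angus 3 far above the others, and the lowest Angus and the highest Holstein value lay close. The log2 fold change was -1.54 ± 0.32 (SE; edgeR likelihood-ratio test, FDR = 0.00210). The quasi-likelihood test called it too (FDR = 0.0537), and DESeq2 did not (adjusted p = 0.617). Without Angus 3 the log2 fold change was -0.91, under the FC minimum, with an FDR of 0.0166.

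This window stood just behind the 6 high windows of the chromosome start, all of which were highest in Angus 3, as the plot of cultures shows. The first window of chromosome 16 held 261, 206, 213 and 219 CPM in the Holstein cultures and 123, 202, 350 and 221 CPM in Angus 1 to 4, with no separation of the breeds (log2 fold change -0.21 ± 0.45). In the seventh window, chr16:20981-23980, the Angus cultures (16.1 to 23.3 CPM) again lay above the Holstein cultures (10.3 to 15.2 CPM), but its log2 fold change of -0.72 ± 0.30 did not pass the test (FDR = 0.759). The ninth window, chr16:26981-29980, had a log2 fold change of -0.90 ± 0.26 (edgeR likelihood-ratio test, FDR = 0.125) and overlapping breeds. The eighth was the only one of the first 16 with a fold change in the Holstein direction, 0.36 ± 0.26 on the log2 scale.

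The DMR higher in Holstein was chr2:145434-148433 in LOC100848983, a gene with no symbol on the plus strand. It held 50.7, 6.10, 60.5 and 5.63 CPM in Holstein 1 to 4 and 11.3, 5.08, 2.99 and 6.26 CPM in Angus 1 to 4. Holstein 1 and 3 were high, whereas Holstein 2 and 4 lay among the Angus cultures, so the breeds overlapped. The log2 fold change was 2.28 ± 0.55 (edgeR likelihood-ratio test, FDR = 0.0204), and neither the quasi-likelihood test (FDR = 0.186) nor DESeq2 (adjusted p = 0.993) called it. The call was lost without Holstein 1 (log2 fold change 1.73), without Holstein 3 (1.86), without Angus 2 (2.14) or without Angus 4 (2.19). The 2 windows before it and the window after it, all of the same gene, held 5.47 to 5.77 CPM on average. In the window directly before it Holstein 1 and 3 were again the highest cultures, at 8.75 and 7.72 CPM with the next culture at 5.89 CPM, and in the window after it they were not, at 5.87 and 5.49 CPM with Angus 4 at 7.65 CPM.

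**Figure D5:**
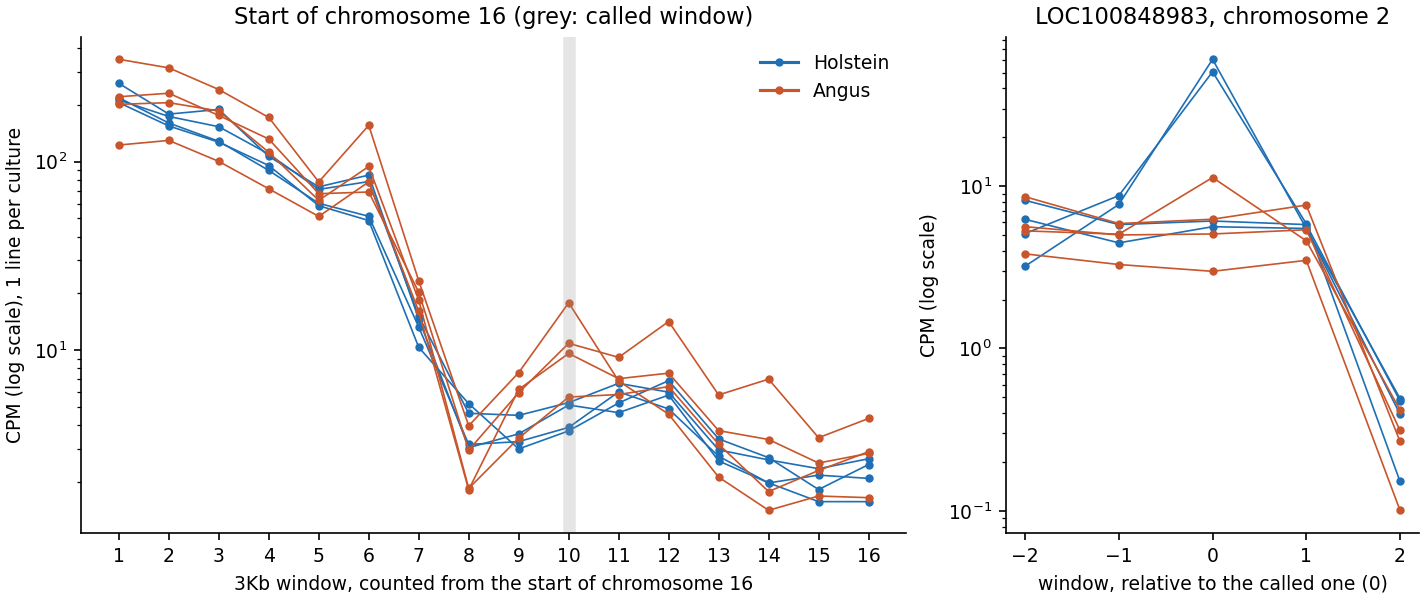
CPM (log scale) of each culture, 1 line per culture, in the first 16 windows of chromosome 16 (left, with the DMR shaded) and in the DMR of LOC100848983 and 2 windows on either side (right). On the left the Angus lines lie above the Holstein lines in window 10 (5.63 to 17.8 against 3.72 to 5.26 CPM) and in window 7, and mix in the others, and on the right 2 Holstein cultures reach 50.7 and 60.5 CPM in the DMR.

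Among windows that were not called, the smallest p values in the Holstein direction belonged to chr1:564301-567300, chr26:548131-551130 and chr27:147967-150966. The chromosome 1 window, with no gene name, held 1.21, 1.90, 1.93 and 2.28 CPM in Holstein and 1.19, 1.04, 0.772 and 0.803 CPM in Angus 1 to 4, without overlap. Its log2 fold change of 0.78 ± 0.20 passed the FDR threshold (edgeR likelihood-ratio test, FDR = 0.0432) but not the FC minimum. The other 2 had log2 fold changes of 0.71 and 0.74 (FDR = 0.140 and 0.167); the last lies in LOC100847320. In the Angus direction the ninth window of chromosome 16 was followed by chr14:980747-983746 (-0.78, FDR = 0.187) and chr27:450967-453966 (-0.70, FDR = 0.364).

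Dropping the CPM filter added 2 windows with at least 1 CPM in fewer than 4 cultures, and the breeds did not overlap in either. In VSTM2A, chr4:427305-430304, the Holstein cultures held 0.101 to 0.341 CPM and the Angus cultures 0.470 to 0.910 CPM (edgeR likelihood-ratio test, FDR = 0.00116). In MERTK, the receptor kinase gene of apoptotic cell uptake, chr11:385585-388584, the Holstein cultures held 0.530 to 1.21 CPM and the Angus cultures 0.0535 to 0.417 CPM (FDR = 0.000487). These levels start from a few reads in the lower breed.

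Summed over whole megabases, none of the 29 first-megabase blocks differed between the breeds, against 1 of the 2529 autosomal blocks (0.0395%) in the edgeR likelihood-ratio test at FDR < 0.1. At an unadjusted p below 0.05 there were 0 of the 29, against 29 of 2529 (1.15%), and the quasi-likelihood test and DESeq2 also called 0 of the 29. The smallest p was that of chromosome 7, with a log2 fold change of -0.27 ± 0.14 (unadjusted p = 0.0593 in edgeR's likelihood-ratio test). On chromosome 14, with the most reads, it was 0.003 ± 0.24, and on chromosome 25 it was -0.05 ± 0.23.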

How the data were processed

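The data were the MIRA-Seq libraries of 8 dermal fibroblast cultures without treatment, 4 Holstein and 4 Angus. The members and lists were chosen with earlier results of these data known. After quality filtering, the authors used NextGENe 2.3.4 for alignment to UMD v3.1 and deposited the raw read count of each consecutive 3Kb window, without normalization; the submitters' notes also name CASAVA 1.7. The deposited files also hold the mean and highest coverage of each window, a signal that was not scaled for depth. How duplicate reads and reads with several matches were treated is not given in the sources used here, and counts in repeats depend on it. RNA-Seq libraries were not used here. No sequence is shown, because no genome of this build was used here.

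Counts were divided by the total over all windows of the library, 18691111 to 35525554 reads, to give CPM. Breeds were compared in R 4.3.3 with edgeR 4.0.16 (TMM, likelihood-ratio test as in the study, Benjamini-Hochberg adjustment over all windows tested, windows with 1 CPM or more in 4 or more libraries, FDR < 0.1 and FC ≥ 2) and again on counts summed over blocks of 1000000 bases at FDR < 0.1. The SE is the fold change divided by the root of its chi-square value. On simulated counts for the 115360 windows with a dispersion of 0.0360, the likelihood-ratio test recovered 24, 48, 50 and 50 of 50 windows changed by 2, 3, 4 and 8 times, and 4.97% of its calls were false. On the 2529 blocks it recovered all 50 at each fold, and 13.4% of its calls were false. Each simulation gave every window or block the same dispersion, so these shares need not hold where the data vary more. In the data the SE of the log2 fold change reached 0.427 among the first-megabase blocks, on chromosome 17.

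Exact two-sided sign-flip permutation tests served for differences within cultures (7 comparisons) and exact two-sided permutation tests for breeds (2 comparisons), each family adjusted, using Python 3.11.15 (pandas 2.3.3, scipy 1.17.1). High windows had a mean of at least 20 CPM. A gene's first window was its first by strand among the windows that carry its name. Named were the DMRs, the 5 windows with the highest mean, the 3 chromosomes with the highest and the 3 with the lowest median, the 5 genes with a symbol with the highest and the 5 with the lowest first window, symbol stems shared by at least 3 genes, and the 3 windows in each direction with the smallest p among those not called; other names were chosen by their values. Of the 5 genes with the highest first window, 1 is not reported here. The alternatives were edgeR's quasi-likelihood test, DESeq2 1.42.0, total counts, DESeq2 size factors, autosomal or TMM library sizes, other CPM filters, thresholds and limits of the region, the animal number as a block, leaving out high or empty windows, and leaving out each sample.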

Additional observations from a re-analysis of the deposited data

Results flagged for a closer look

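In 3 of 56 sets of 4 cultures, a value lay far from the other 3; chance does this in about 1 in 20 sets. In all 3 the other cultures of the breed had a difference of exactly 0, since medians of window counts move in steps of 1 read. For the difference in median CPM between the first megabase and the rest of the autosomes, Holstein 1 stood lowest at -0.0506 CPM, 1 read in that library, and Angus 2 stood highest at 0.0348 CPM, also 1 read. For the difference in median CPM between the first and the second 500 kb of the first megabase, Holstein 4 stood lowest at -0.0281 CPM, again 1 read.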

How the results depend on the processing

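The number of member windows called between the breeds was 2; it was 1 with edgeR's quasi-likelihood test, 0 with DESeq2 and 4 without the CPM filter, and 1 to 4 when single cultures were left out (1 without Holstein 3 and 4 without Angus 2). No first-megabase block was called under any alternative. The breed difference in mean CPM turned to -0.120 with TMM library sizes and -0.0224 with autosomal totals, and that in median CPM to -0.00784 with TMM library sizes; the latter lay between -0.00820 (without Angus 3) and 0.0736 (without Holstein 1) when single cultures were left out, and was -0.00564 without Holstein 2. The difference in median between the first megabase and the rest turned to 0.00435 with a limit of 2 Mb and to 0.00579 without Holstein 1 and Angus 3, and lay between -0.00722 (without Angus 2) and 0.00497 (without Holstein 1) over single omissions. The difference between first and other gene windows turned to 0.00786 with a limit of 2 Mb. The cause was not tested. The other 174 values that answer a comparison kept their direction and their side of the threshold, or, for counts, stayed within 1.5 times. Leaving out chromosomes 14 and 25, the first 10 windows, or Holstein 1 with Angus 3 was chosen after seeing the data. Restricting the blocks to autosomes changes nothing, because they hold autosomes only.

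The breeds share animal numbers 1 to 4, but same-numbered cultures did not deviate together (correlations of deviations -0.157 to 0.139, mean -0.00228, against 0.00277 for different numbers). No pairing by number was thus seen in these values, but 4 pairs are too few to settle it. With the animal number as a block, 2 windows and 0 blocks were called, and paired exact permutation tests of the mean (0.0746 CPM, p = 0.75) and median (0.0257 CPM, p = 0.875) did not pass; 4 pairs cannot go below p = 0.125.

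Depth limits single windows: the median member window held 3 to 12 reads and 7784 windows were too low to test for breed.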
